A study of Mus musculus with 4 samples.

Results

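Splicing of pre-mRNA in skeletal muscle depends on a group of RNA-binding proteins that were followed here as 75 genes of the 13825 in the count table. The genes were taken by symbol and comprised 10 Srsf genes, 22 Hnrnp genes, 9 genes of the Sf3a and Sf3b series and 34 Rbm genes. The libraries came from the tibialis anterior (TA), a fast muscle of the lower hind limb, of adult male WT mice and of mice with a whole-body deletion of Fgf21 (Fgf21KO), 14 days after sciatic denervation of 1 leg. Each genotype gave a sham library (WS for WT, KS for Fgf21KO) and a denervated library (WD for WT, KD for Fgf21KO), and each of these 4 libraries was made from 4 pooled muscles. The deposited design text describes the sham leg as the innervated leg of the same mice, whereas the methods of the study describe a sham operation on it. The question addressed by the libraries was how muscle RNA responds to loss of the nerve with and without Fgf21. The transcript of Fgf21 itself was not analysed here, so its loss in the Fgf21KO libraries was not checked.

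Serine/arginine-rich (SR) proteins, encoded by the Srsf genes, bind exonic enhancers and recruit the spliceosome to nearby splice sites, whereas many heterogeneous nuclear ribonucleoproteins (hnRNPs) coat nascent RNA and counteract them. The SF3A and SF3B complexes are parts of the U2 small nuclear ribonucleoprotein (snRNP), which recognizes the branch point of the intron. RNA-binding motif (RBM) proteins are a mixed group, from spliceosome components to regulators of mRNA stability, and in striated muscle include the titin splicing factor Rbm20. The counts were summed over all transcripts of a gene, and splicing itself was not measured.

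Among these genes, Rbm38 showed the strongest loss of transcript after denervation and Rbm47 the strongest gain, and the SF3B subunits Sf3b3 and Sf3b6 as well as Rbm45 were among the other members with large gains. Their promoter windows, from 250 bases before to 50 bases after the RefSeq start in build GRCm38.p6, are shown because the results below turn on these genes. Rbm47 has 3 RefSeq starts and thus 3 windows. Capitals mark the letters CANNTG (E-box) and CCGGAA (Ets core), each searched on both strands.
Rbm38 (chr2:173021652-173021951, plus strand): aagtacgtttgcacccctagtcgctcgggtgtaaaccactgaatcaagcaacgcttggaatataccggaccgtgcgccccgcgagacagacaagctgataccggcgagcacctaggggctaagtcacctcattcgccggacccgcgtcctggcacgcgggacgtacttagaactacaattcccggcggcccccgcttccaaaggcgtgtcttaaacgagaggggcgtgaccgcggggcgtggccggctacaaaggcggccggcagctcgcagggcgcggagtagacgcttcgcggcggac
Rbm47 (chr5:66151905-66152204, minus strand): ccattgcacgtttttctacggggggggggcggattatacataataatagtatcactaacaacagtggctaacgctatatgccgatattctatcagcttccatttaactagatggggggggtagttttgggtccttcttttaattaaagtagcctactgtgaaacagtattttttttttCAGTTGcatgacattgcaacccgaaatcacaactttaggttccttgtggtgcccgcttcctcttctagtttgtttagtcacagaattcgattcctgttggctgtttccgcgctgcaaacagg
Rbm47 (chr5:66150929-66151228, minus strand): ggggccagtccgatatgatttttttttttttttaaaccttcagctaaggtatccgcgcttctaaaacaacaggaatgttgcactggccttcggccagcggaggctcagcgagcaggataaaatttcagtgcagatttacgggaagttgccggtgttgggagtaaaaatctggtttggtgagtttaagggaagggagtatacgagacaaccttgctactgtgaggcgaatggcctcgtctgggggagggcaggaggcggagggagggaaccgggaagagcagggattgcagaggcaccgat
Rbm47 (chr5:66098130-66098429, minus strand): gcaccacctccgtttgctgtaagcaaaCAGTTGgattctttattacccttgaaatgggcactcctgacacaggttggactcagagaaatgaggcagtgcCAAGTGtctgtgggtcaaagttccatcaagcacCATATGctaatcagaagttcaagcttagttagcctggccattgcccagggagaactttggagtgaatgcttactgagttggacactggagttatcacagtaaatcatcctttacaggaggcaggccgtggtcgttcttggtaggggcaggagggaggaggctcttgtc
Sf3b3 (chr8:110846754-110847053, minus strand): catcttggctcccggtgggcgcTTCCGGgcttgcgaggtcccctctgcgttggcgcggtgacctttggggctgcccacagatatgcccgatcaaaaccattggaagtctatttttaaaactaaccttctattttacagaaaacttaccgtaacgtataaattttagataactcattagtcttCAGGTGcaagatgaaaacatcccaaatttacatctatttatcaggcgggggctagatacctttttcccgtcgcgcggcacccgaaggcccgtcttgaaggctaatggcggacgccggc
Rbm45 (chr2:76369734-76370033, plus strand): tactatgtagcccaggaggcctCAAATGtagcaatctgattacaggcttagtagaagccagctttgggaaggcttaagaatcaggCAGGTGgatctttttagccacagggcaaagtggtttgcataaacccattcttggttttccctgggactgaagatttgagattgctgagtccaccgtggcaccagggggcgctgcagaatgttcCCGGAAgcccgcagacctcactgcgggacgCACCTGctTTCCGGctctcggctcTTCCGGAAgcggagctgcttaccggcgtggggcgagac
Sf3b6 (chr12:4817358-4817657, plus strand): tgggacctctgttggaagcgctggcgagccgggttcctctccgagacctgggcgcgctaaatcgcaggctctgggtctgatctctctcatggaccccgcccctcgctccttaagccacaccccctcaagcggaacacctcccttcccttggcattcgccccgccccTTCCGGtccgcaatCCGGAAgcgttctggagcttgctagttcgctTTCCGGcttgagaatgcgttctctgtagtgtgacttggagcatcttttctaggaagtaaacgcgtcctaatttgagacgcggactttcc

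The Rbm38 window held neither motif, the 3 Rbm47 windows held 1, 0 and 3 E-boxes and no Ets core, the Sf3b3 window held 1 match to each, the Rbm45 window held 3 E-boxes and 4 Ets cores, some of them overlapping, and the Sf3b6 window held 3 Ets cores and no E-box. Windows were found for 62 of the 75 members, with 80 windows in all because some genes have several starts. An E-box was present in 63.75% of these windows, in 63.5% of the windows of all tested genes and in 72.3% of all 32851 mouse windows. The Ets core was present in 41.25% of member windows, compared with 27.3% for the tested genes and 14.9% for all windows. The GC box (GGGCGG) was found in 62.5% of member windows and 62.1% of those of tested genes, and the CCAAT box (CCAAT) in 47.5% and 37.7%, respectively. For the TATA box (TATAAA) these shares were 13.75% and 7.19%, for the YY1 core (AAGATGGC) 6.25% and 4.36%, and for the cAMP response element (TGACGTCA) 0% and 3.04%. The median GC content of the windows was 61% for the members and 60.7% for the tested genes. These matches describe the letters in the windows and were not tied to any difference between libraries.

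The total count over the genes analysed ran from 25249879 (WS) to 34141303 (KS), and 3 counts corresponded to 0.0919 to 0.129 CPM (counts per 1000000 reads, scaled by TMM) across the libraries. The share of counts on 15 mitochondrially encoded genes was 27.3% and 30.8% in the sham libraries and 19.6% and 20.8% in the denervated libraries. Of 9 myofibre markers, the 3 in the table (Myh1, Mylpf and Tnni2) summed to 40565.5 to 41907.8 CPM in sham muscle and to 25472.9 to 27722.2 CPM in denervated muscle. All 7 macrophage markers were present, and their sum was 24.8 CPM in KS and 25.01 CPM in WS and 57.7 to 58.0 CPM in denervated muscle. The 7 markers of fibro-adipogenic progenitors summed to 857 to 863 CPM in sham and 565 to 569 CPM in denervated muscle, and the 6 endothelial markers to 434 to 534 CPM and 234 to 238 CPM. The 4 smooth muscle and pericyte markers present of 5 summed to 630 to 678 CPM in sham and 280 to 284 CPM in denervated muscle, and the 4 Schwann cell markers present of 7 to 55.1 to 57.1 CPM and 24.1 to 24.2 CPM. The 2 satellite cell markers present of 5 (Cd82 and Vcam1) summed to 10.9 to 12.6 CPM in sham and 63.8 to 68.1 CPM in denervated muscle, and the 5 erythroid markers to 289 to 333 CPM and 170 to 208 CPM. Of the adipocyte markers only Cidec was in the table, at 0.808 to 1.85 CPM, and the 4 T cell markers were not analysed here. The part of these shifts in the results below was not tested, and in bulk RNA fewer cells of a type and less RNA per cell cannot be told apart.

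The levels of the members added up to 4497 CPM in WS, 4970 CPM in WD, 4642 CPM in KS and 4974 CPM in KD. Compared per kilobase of exon, the most abundant was Hnrnpa2b1, which encodes a core protein of hnRNP particles, at 83.6 and 89.3 CPM per kb in the sham libraries and 94.1 and 94.0 in the denervated libraries of WT and Fgf21KO. In sham muscle the next was Rbm38, at 63.4 CPM per kb in WS and 59.8 in KS, above Hnrnpab at 42.3 and 48.1. After denervation this order was inverted, with Rbm38 at 18.5 CPM per kb in WD and 16.4 in KD and Hnrnpab at 52.9 and 52.6. The median member of each family was at 8.95 to 10.6 CPM per kb for the Srsf genes, 16.5 to 17.4 for the Hnrnp genes, 5.04 to 6.75 for the Sf3a and Sf3b genes and 3.10 to 3.64 for the Rbm genes across the 4 libraries. At the other end, Rbm47 and the processed pseudogenes Hnrnpa1l2-ps and Hnrnpa1l2-ps2 had fewer than 10 reads in sham muscle. The pseudogenes had 4 to 8 reads in every library and were the 2 members below the mean count of 10 required for testing, which left 73.

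**Figure D1:**
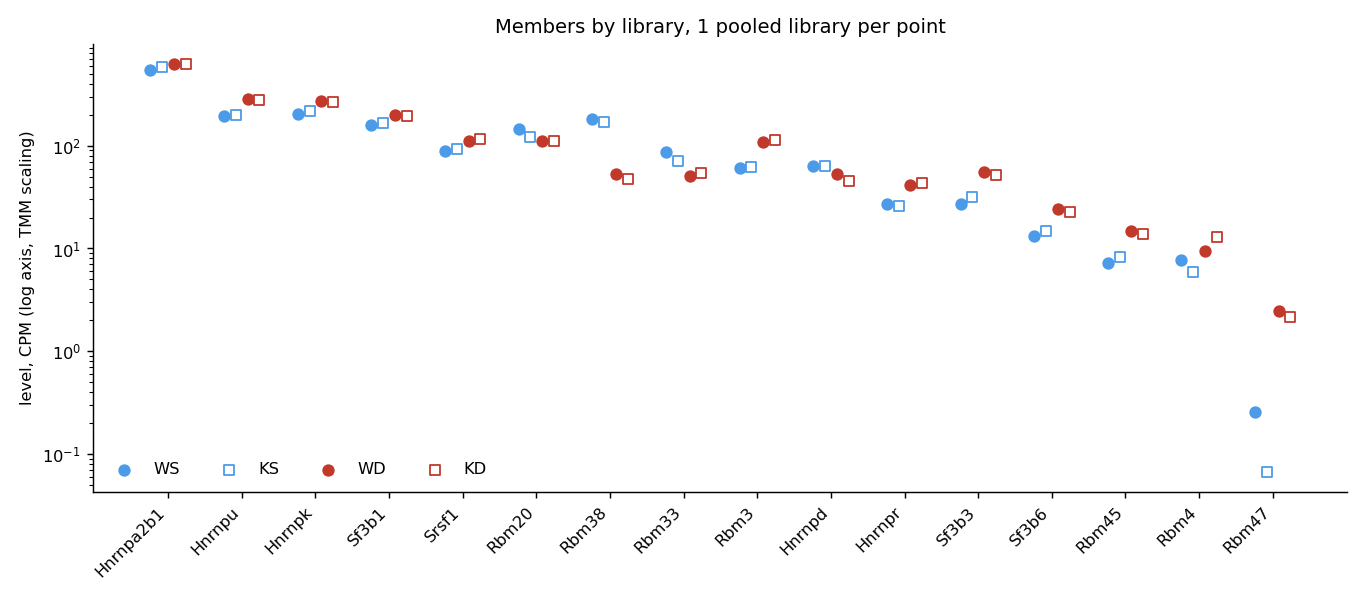
Level of 16 members in each of the 4 libraries, in CPM with TMM scaling on a log axis, with 1 point per pooled library (blue, sham; red, denervated; circles, WT; open squares, Fgf21KO). Rbm38 lay at 182 and 172 CPM in the sham libraries and at 53.1 and 46.9 CPM in the denervated libraries, and Rbm47 moved the opposite way from 0.258 and 0.0673 CPM to 2.45 and 2.13 CPM.

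Denervation raised many of the members by a small amount and lowered few of them. In edgeR's quasi-likelihood test over all 4 libraries, with genotype as a term, 28 of the 73 tested members rose (38.4%; 26.6% of all 13084 genes tested) and 7 fell (9.59%; 27% of all genes). The share that moved in either direction was 47.9% of the members and 53.5% of all genes, and the difference between these shares was not tested. Both denervated libraries were above both sham libraries for 41 members (56.2%; 38.1% of all genes) and below them for 11 (15.1%; 36.7% of all genes). The median log2 fold of denervation was 0.15 over the members and 0.0093 over all genes. The adjusted p-values of this test take the 2 genotypes as repeats of the surgery contrast, and since each library is a pool they do not measure the spread between mice.

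Few of these changes were large. In WT muscle 3 members were at least 2-fold higher after denervation (Sf3b3, Rbm45 and Rbm47; 7.18% of all genes) and 1 was at least 2-fold lower (Rbm38; 7.61% of all genes). In Fgf21KO muscle 2 were at least 2-fold higher (Rbm4 and Rbm47; 7.51% of all genes), and again only Rbm38 was at least 2-fold lower (6.1% of all genes). At a 1.5-fold threshold, 9 members were apart in WT (34.7% of all genes) and 11 in Fgf21KO (33.9% of all genes). The standard deviation of the log2 ratios over the members was 0.52 in WT and 0.61 in Fgf21KO, against 0.79 for all genes in each. With 1 library per group these counts have no replicate check. The scaling mattered for the balance of directions. With total counts only, the median log2 ratio of all genes moved to 0.29 in WT and 0.36 in Fgf21KO, and 58 members rose and 2 fell (46.7% and 12.8% of all genes), and the median of the members was above that of all genes by 0.18 and 0.14, against 0.18 and 0.13 with TMM.

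**Figure D2:**
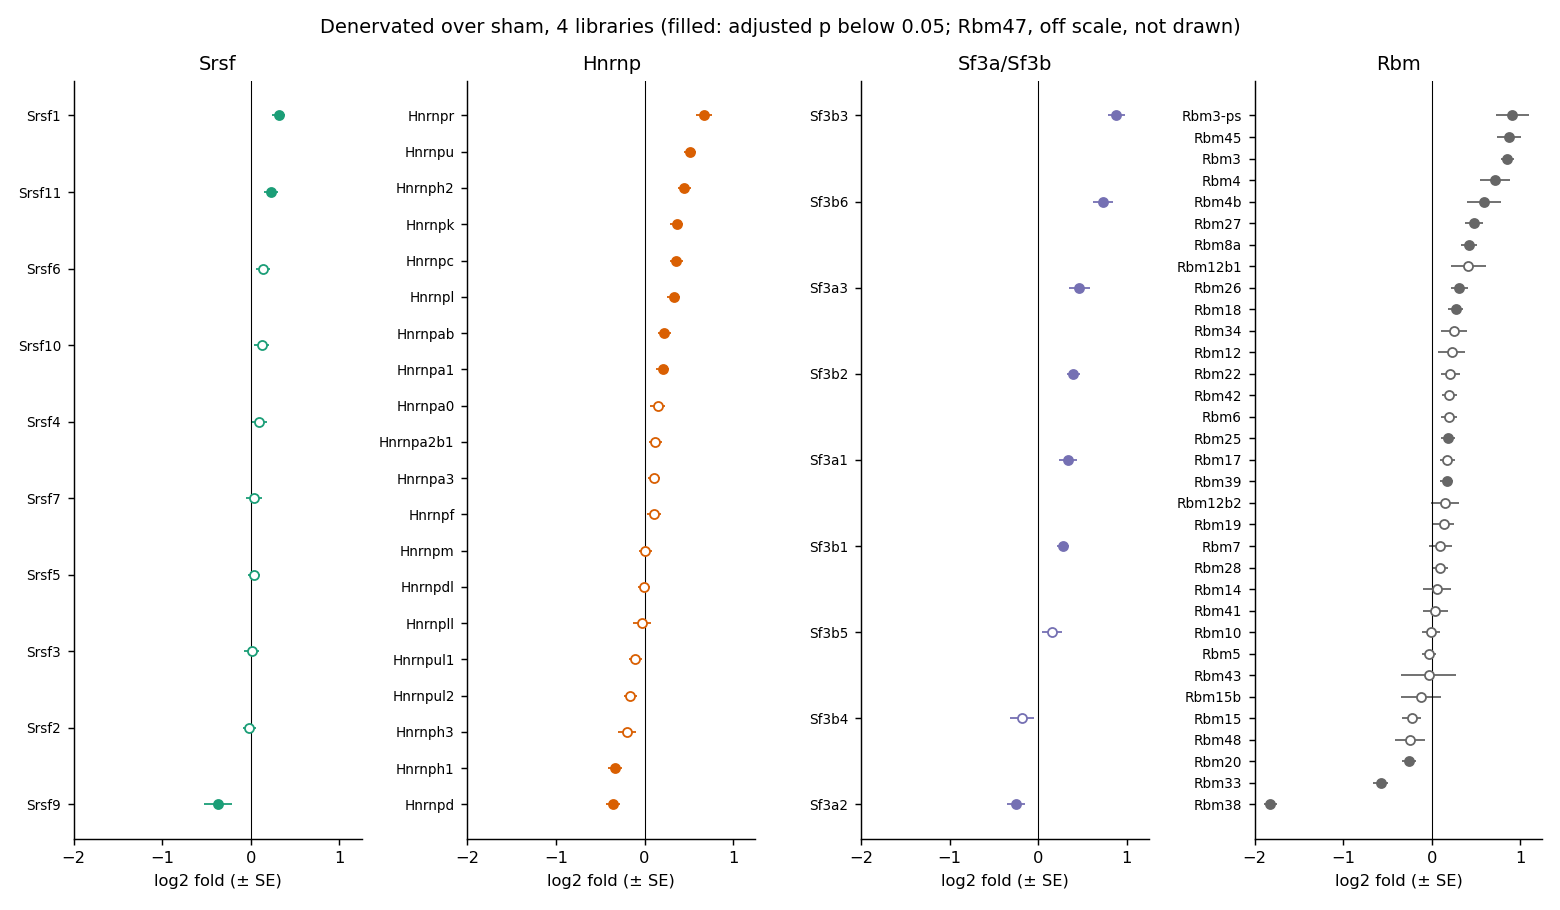
Log2 fold of denervation (denervated over sham, all 4 libraries, additive fit) for 72 tested members by family, with bars of 1 SE and filled symbols for an adjusted p-value below 0.05; Rbm47, at 3.87, lies off the scale and is not drawn. Most Sf3a and Sf3b genes lay to the right of 0 with a median of 0.34, the Srsf genes lay close to 0 with a median of 0.06, and Rbm38 was isolated at -1.82.

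The SR protein genes had the smallest median fold of the 4 families. Of 10 tested, 2 rose (20%; 26.6% of all genes) and 1 fell (10%; 27% of all genes), and the other 7 had log2 folds of -0.02 to 0.14 with adjusted p-values from 0.126 to 0.939. Srsf1, the prototype SR protein and an activator of exon inclusion, was at 88.3 CPM in WS, 110 CPM in WD, 93.8 CPM in KS and 116 CPM in KD. Both denervated libraries were thus above both sham libraries, and Srsf1 rose with a log2 fold of 0.31 ± 0.07 (SE; adjusted p = 0.000581). Srsf11, an SR-related protein that interacts with U2AF at the 3' splice site, was at 72.3, 77.5, 69.3 and 88.9 CPM in WS, WD, KS and KD and rose by 0.23 ± 0.08 on the log2 scale (adjusted p = 0.0152). Its gain was mainly that of the Fgf21KO muscle, with a log2 ratio of 0.36 (95% counting interval 0.28 to 0.44) against 0.10 (0.01 to 0.19) in WT, a difference that was not tested. The rise of Srsf11 did not pass with DESeq2's Wald test (adjusted p = 0.131; 0.00022 to 0.131 over its alternatives).

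Srsf9, a small SR protein, went the other way, at 9.68 CPM in WS and 8.45 CPM in KS but 7.08 CPM in WD and 6.88 CPM in KD. Its log2 fold was -0.37 ± 0.16 (adjusted p = 0.0437), which lay close to the threshold and was lost under 4 of 7 alternatives (adjusted p = 0.0407 to 0.79). Srsf2 (SC35), known for its place in nuclear speckles, was at 96.2, 98.8, 112 and 106 CPM in WS, WD, KS and KD and was separated by genotype rather than by surgery, with no call in either test. Srsf3, the smallest SR protein, was at 51.1 CPM in WS, 58.9 CPM in WD, 63.7 CPM in KS and 56.1 CPM in KD, so that the lowest and the highest value were both in sham muscle. Its log2 ratio of denervation was 0.21 (0.10 to 0.31) in WT and -0.18 (-0.28 to -0.09) in Fgf21KO. Srsf10, which turns into a general splicing repressor when dephosphorylated, also had its lowest value in WS, at 36.1 CPM against 43.0 CPM in WD, 40.9 CPM in KS and 40.8 CPM in KD. Its log2 ratios were 0.25 (0.13 to 0.38) in WT and -0.01 (-0.12 to 0.11) in Fgf21KO.

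**Figure D3:**
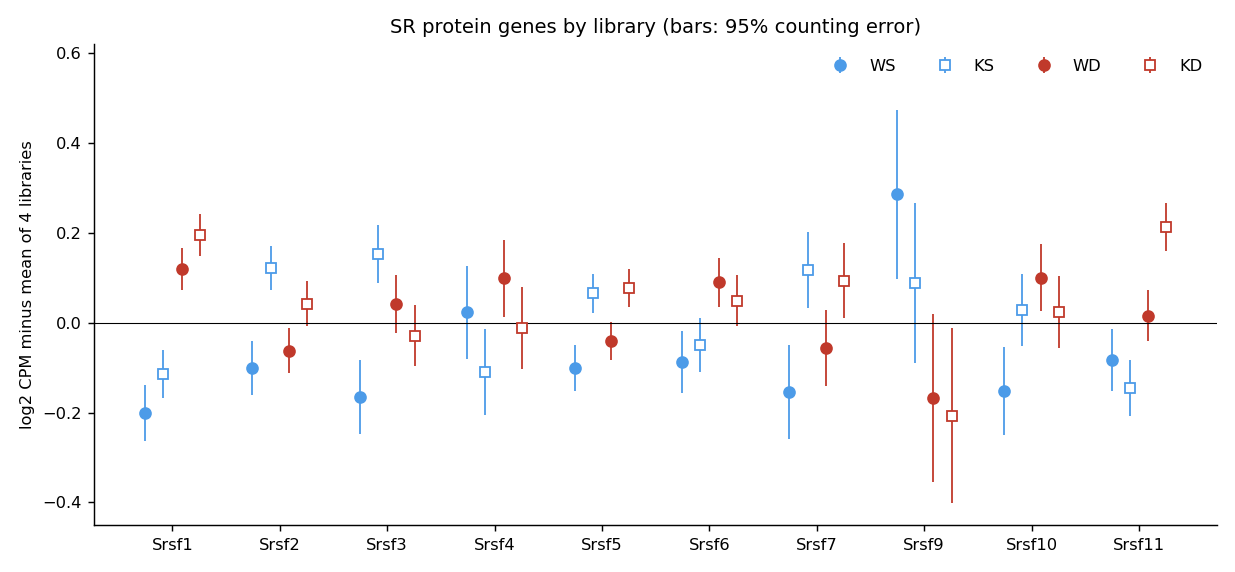
Level of the 10 SR protein genes in each library as log2 CPM minus the mean of the 4 libraries, with bars for the 95% counting error of a library (blue, sham; red, denervated; circles, WT; open squares, Fgf21KO). Srsf1, Srsf6 and Srsf11 had both denervated libraries on top, and Srsf9 had them at the bottom. The WS library was the lowest for every gene except Srsf4, Srsf9 and Srsf11.

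Across the SR genes, 9 of 10 had a log2 ratio above 0 in WD vs WS (50.5% of all genes), 5 of 10 in KD vs KS (50.8% of all genes) and 7 of 10 in KS vs WS (49.7% of all genes). The medians of these ratios were 0.098, 0.0034 and 0.13. All of these comparisons involve the sham libraries, and the last shares the WS library with the first and the KS library with the second.

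Among the hnRNP genes 8 of 20 rose (40%; 26.6% of all genes) and 2 fell (10%; 27% of all genes). Hnrnpr, an hnRNP that binds actin mRNA in motor axons, had the highest fold. It was at 27.0 CPM in WS and 26.2 CPM in KS and at 41.4 CPM in WD and 43.1 CPM in KD, and rose by 0.67 ± 0.09 on the log2 scale (adjusted p = 3.23e-07). Hnrnpu, the nuclear scaffold protein also called SAF-A, was second at 195 CPM in WS, 285 CPM in WD, 200 CPM in KS and 279 CPM in KD. The denervated and the sham values of Hnrnpu formed separate pairs, with a log2 fold of 0.51 ± 0.07 (adjusted p = 4.09e-07). Hnrnpk, a poly(C)-binding protein with KH domains, was at 203, 273, 216 and 265 CPM in WS, WD, KS and KD and rose by 0.36 ± 0.07 (adjusted p = 8.55e-05). Hnrnpa1, a repressor of exon inclusion, was at 102 CPM in WS, 123 CPM in WD, 104 CPM in KS and 115 CPM in KD. This smaller rise of 0.20 ± 0.07 (adjusted p = 0.0201) was not called with DESeq2's Wald test (adjusted p = 0.128; 4.08e-05 to 0.128 over its alternatives). Hnrnph2, Hnrnpc, Hnrnpl and Hnrnpab also rose, with log2 folds between 0.22 and 0.45. Whether DESeq2's Wald test called each of these genes is not given here.

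Hnrnpd (AUF1), which binds AU-rich elements and directs mRNAs to decay, was at 63.0 CPM in WS and 63.1 CPM in KS, and at 53.6 CPM in WD and 45.3 CPM in KD. It fell by 0.36 on the log2 scale (SE 0.08, adjusted p = 0.000575), with ratios of -0.23 (-0.33 to -0.13) in WT and -0.48 (-0.58 to -0.38) in Fgf21KO. Hnrnph1, which binds runs of G, was at 105 CPM in WS, 122 CPM in KS and 89.8 CPM in both denervated libraries, and fell by 0.33 (SE 0.08, adjusted p = 0.000478). The falls of Hnrnpd and Hnrnph1 were not called with total counts only (log2 folds of -0.03 and -0.01; adjusted p over all alternatives 0.00064 to 0.727 and 0.000536 to 0.89). The close paralog Hnrnph2 moved the opposite way, at 51.1 CPM in WS, 68.5 CPM in WD, 50.5 CPM in KS and 70.5 CPM in KD. Hnrnph2 contributed 32.8% and 29.2% of the reads of the pair in the sham libraries and 43.3% and 44.0% in the denervated ones, while the sum of both genes had log2 ratios of 0.024 in WT and -0.11 in Fgf21KO. Because the genes are similar in sequence, the division of reads between them is uncertain. The 10 hnRNP genes that did not pass the test had log2 folds from -0.19 to 0.15, including the abundant Hnrnpa2b1 at 0.12 (adjusted p = 0.156).

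The SF3A and SF3B genes had the highest median fold of the 4 families, 0.34 on the log2 scale, with 6 of 9 rising (66.7%; 26.6% of all genes) and 1 falling (11.1%; 27% of all genes). Sf3b3, the large scaffold subunit of SF3B, was at 26.9 CPM in WS, 55.6 CPM in WD, 31.4 CPM in KS and 52.1 CPM in KD. This corresponded to 2.07-fold (95% counting interval 1.89 to 2.27) in WT and 1.66-fold (1.53 to 1.80) in Fgf21KO, and to a log2 fold of 0.88 ± 0.09 (adjusted p = 2.04e-09). Sf3b6, the small subunit that contacts the branch point adenosine, rose by 0.74 ± 0.11 (adjusted p = 3.08e-06), from 13.2 and 14.6 CPM in WS and KS to 24.0 and 22.4 CPM in WD and KD. Sf3b1, the subunit that clamps the branch site and is recurrently mutated in myeloid neoplasms, was at 160 CPM in WS, 200 CPM in WD, 166 CPM in KS and 196 CPM in KD and rose by 0.28 ± 0.07 (adjusted p = 0.00139). In each of these genes both denervated libraries exceeded both sham libraries. Sf3b2, Sf3a1 and Sf3a3 also rose, by 0.34 to 0.46, and their calls under DESeq2's Wald test are not given here.

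Of the remaining 3 subunit genes with these symbols, 1 fell and 2 did not pass the test. Phf5a, an SF3B subunit whose symbol lies outside the rule, also fell in this test (log2 fold -0.33 ± 0.10, adjusted p = 0.0054). Sf3a2, a zinc finger subunit of SF3A, was at 23.8 CPM in WS, 25.01 CPM in KS, 21.5 CPM in WD and 19.7 CPM in KD, and its log2 fold was -0.25 ± 0.10 (adjusted p = 0.047). This call was near the threshold, was lost under 4 of 7 alternatives (adjusted p = 0.0423 to 0.565) and its log2 fold turned to 0.073 with total counts only. Sf3b4, which binds the pre-mRNA next to the branch site, was at 10.9, 9.80, 12.4 and 10.6 CPM in WS, WD, KS and KD (log2 fold -0.19 ± 0.13, adjusted p = 0.256), and Sf3b5 was at 18.0, 20.5, 19.2 and 21.0 CPM with a log2 fold of 0.16 ± 0.11 (adjusted p = 0.23). The log2 ratio of denervation was lower in Fgf21KO than in WT for 8 of the 9 subunit genes (50.8% of all genes), with Sf3a3 as the exception. The median of these differences was -0.079, and they were not tested.

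The RBM genes held both extremes of the response, with 12 of 34 rising (35.3%; 26.6% of all genes) and 3 falling (8.82%; 27% of all genes). Rbm38, which binds mRNAs such as that of the cell cycle inhibitor p21 and is known to promote myogenic differentiation, was counted 4226 times in WS, 1734 times in WD, 5098 times in KS and 1452 times in KD. In scaled levels these were 182, 53.1, 172 and 46.9 CPM, so that both denervated libraries were far below both sham libraries. The ratio was 0.292 (95% counting interval 0.276 to 0.309) in WT and 0.273 (0.258 to 0.290) in Fgf21KO, and the log2 fold was -1.82 ± 0.08 (adjusted p = 3.56e-18). Rbm33 was at 86.9 CPM in WS, 71.1 CPM in KS, 51.1 CPM in WD and 54.5 CPM in KD and fell by 0.58 on the log2 scale (SE 0.09, adjusted p = 1.47e-06). Its ratio was -0.77 (-0.86 to -0.67) in WT and -0.38 (-0.48 to -0.29) in Fgf21KO, and the sham libraries differed more from each other than the denervated ones. Rbm20, the striated muscle factor that represses titin exons, was at 145 CPM in WS, 122 CPM in KS, 111 CPM in WD and 112 CPM in KD. Rbm20 fell by 0.25 (SE 0.08, adjusted p = 0.00581) with TMM scaling, but its log2 fold was 0.066 with total counts only (adjusted p = 0.506; 0.00567 to 0.506 over its alternatives).

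Rbm47, an RNA-binding cofactor of C-to-U editing by APOBEC1, was almost undetected in sham muscle, with 6 reads in WS and 2 in KS, and gave 80 reads in WD and 66 in KD. The ratio was 9.49 (95% counting interval 4.17 to 26.6) in WT and 31.7 (8.43 to 267) in Fgf21KO, and the rise passed the test (adjusted p = 7.39e-08). At 2.45 and 2.13 CPM it remained among the lowest members after denervation, and the summed macrophage and satellite cell markers were also higher in the denervated libraries, whose part in this result was not tested. Rbm45, first described in the developing nervous system, was at 7.23 CPM in WS, 14.7 CPM in WD, 8.25 CPM in KS and 13.7 CPM in KD and rose by 0.87 ± 0.14 (adjusted p = 4.47e-06). Rbm3, a cold-inducible RNA-binding protein, was at 60.5, 108, 62.1 and 113 CPM in WS, WD, KS and KD, with nearly equal ratios in both genotypes, and rose by 0.85 ± 0.07 (adjusted p = 8.19e-11). The pseudogene Rbm3-ps followed it closely (log2 fold 0.91 ± 0.18, adjusted p = 0.000105) and held 6.14% to 6.86% of their joint reads in every library. Its reads may in part be those of Rbm3, since the copies are near-identical.

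Rbm4 and Rbm4b, regulators of alternative splicing that are known in muscle differentiation, rose by 0.71 ± 0.17 (adjusted p = 0.000664) and 0.59 ± 0.19 (adjusted p = 0.00983). Rbm4 was at 7.79 CPM in WS, 9.56 CPM in WD, 5.93 CPM in KS and 12.8 CPM in KD. The Fgf21KO libraries were thus the lowest and the highest, and the log2 ratio was 0.29 (0.03 to 0.57) in WT and 1.11 (0.86 to 1.38) in Fgf21KO. The division of reads between Rbm4 and Rbm4b is uncertain, but their summed reads gave a like order, with log2 ratios of 0.38 and 0.93. Rbm4b was not called with DESeq2's Wald test (adjusted p = 0.137; 0.00165 to 0.137 over its alternatives). Rbm8a, the Y14 subunit of the exon junction complex, rose by 0.42 ± 0.09 (adjusted p = 0.000271). Rbm18, Rbm25, Rbm26, Rbm27 and Rbm39 rose by 0.17 to 0.48, with Rbm39 just past the threshold (adjusted p = 0.0498). The calls of Rbm8a and of these genes under DESeq2's Wald test are not given here.

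The other 19 RBM genes did not pass the test and had log2 folds from -0.24 to 0.41. The paralogs Rbm5 and Rbm10, which regulate splicing of apoptosis genes such as Fas, were among the steadiest. Rbm5 was at 53.6 CPM in WS, 53.8 CPM in WD, 53.2 CPM in KS and 50.9 CPM in KD (log2 fold -0.03 ± 0.08, adjusted p = 0.778), and Rbm10 was at 23.0, 24.6, 24.5 and 22.8 CPM (adjusted p = 0.976). Rbm48, a factor of minor intron splicing, was at 7.70 CPM in WS, 8.09 CPM in WD, 9.19 CPM in KS and 6.27 CPM in KD, so that the Fgf21KO libraries were again at both ends (log2 fold -0.24 ± 0.17, adjusted p = 0.228). Rbm14, a paraspeckle protein and transcriptional coactivator, was at 9.51, 7.93, 8.05 and 10.3 CPM in WS, WD, KS and KD (0.06 ± 0.16, adjusted p = 0.79). Rbm15b, a component of the m6A writer complex, was at 4.73 CPM in WS, 3.58 CPM in WD, 3.43 CPM in KS and 3.85 CPM in KD (-0.12 ± 0.23, adjusted p = 0.68).

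**Figure D4:**
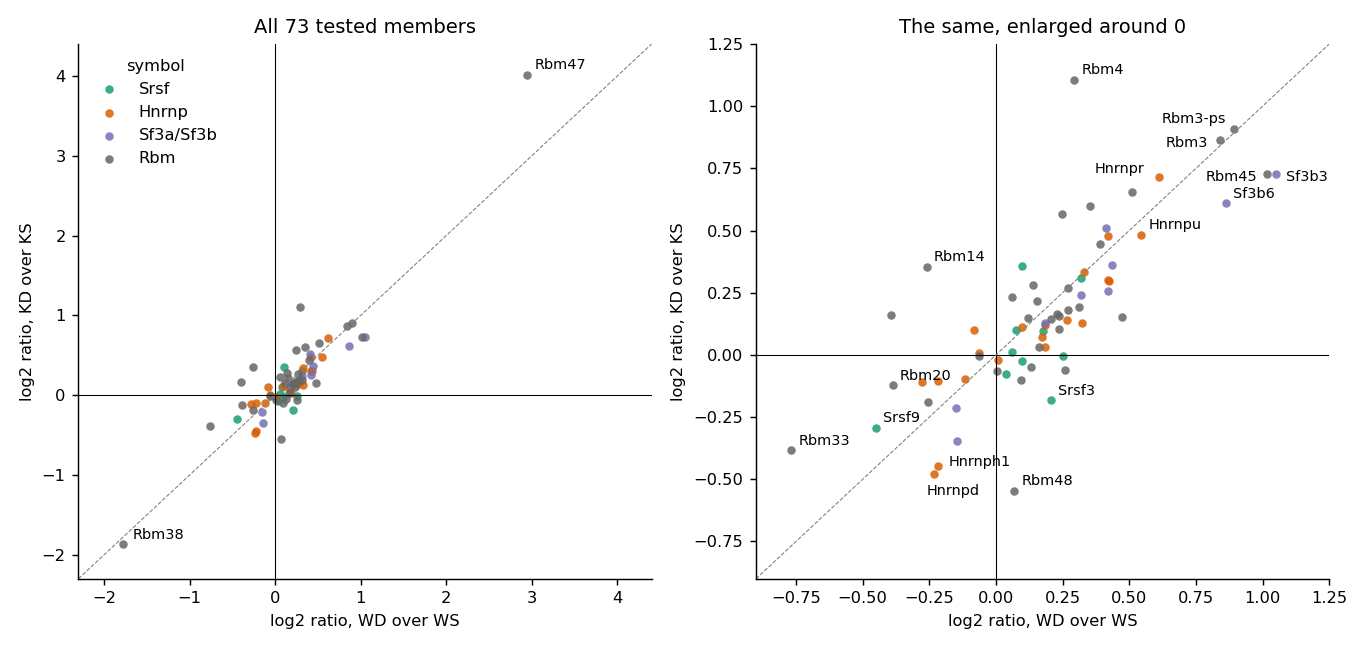
Log2 ratio of denervated over sham in WT (x axis) and in Fgf21KO (y axis) for the 73 tested members, in full (left) and enlarged around 0 (right), with the dashed line marking equal ratios. Rbm38 lay at the lower end, close to the line, and Rbm47 at the upper end, above the line (2.95 in WT and 4.02 in Fgf21KO). Among the genes with at least 50 mean counts, Rbm4, Rbm14 and Rbm48 lay farthest from the line. Most other members lay close to it in the upper right.

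Most members had the same sign of response in both genotypes, at a share close to that of all genes. A total of 46 members had positive ratios in both (63%; 42.1% of all genes), 13 had negative ratios in both (17.8%; 40.8% of all genes) and 14 had opposite signs (19.2%; 17.2% of all genes). In 2 of these, Srsf3 and Hnrnpm, both counting intervals were clear of 0 (1.17% of all genes). Pearson's r between both sets of ratios, which share no library, was 0.91 over the 73 members and 0.77 without Rbm47 and Rbm38, compared with 0.85 over all 13084 genes. These correlations are across genes, which are not independent replicates. The largest difference between genotypes among members with a mean count of at least 50 was that of Rbm4, at 0.81 (95% counting interval 0.45 to 1.18), followed by Rbm48 at -0.62 (-0.997 to -0.23) and Rbm14 at 0.62 (0.26 to 0.97). The interaction takes the only residual degree of freedom of the 4 libraries, so these differences were not tested.

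Differences between genotypes were smaller than those between surgeries. No member passed the quasi-likelihood test of genotype (0.673% of all genes did), with 3 of 73 members (1037 of all 13084 genes) at an unadjusted p below 0.05 and 0 members called by DESeq2's Wald test. The sham and denervated libraries of a genotype came from the legs of the same mice per the design text, so that each genotype is 1 pool of animals and these p-values do not measure the spread between mice. The lowest adjusted p-value, 0.431, was that of Rbm34, a nucleolar RNA-binding protein, which was at 7.32 CPM in WS and 9.10 CPM in WD against 9.83 CPM in KS and 11.2 CPM in KD. Both Fgf21KO libraries were above both WT libraries, with a log2 fold of 0.36 ± 0.14. Next in size were Rbm4b (0.24 ± 0.19, adjusted p = 0.835) and Rbm12b2 (0.22 ± 0.16, adjusted p = 0.814) on the higher side and Rbm12 (-0.18 ± 0.15, adjusted p = 0.858) and Rbm15b (-0.17 ± 0.23, adjusted p = 0.927) on the lower side, beside Rbm47. In sham muscle, 1 member was at least 2-fold apart between genotypes (2.04% of all genes), namely Rbm47 with 2 reads in KS and 6 in WS, a ratio of 0.261 whose counting interval of 0.0257 to 1.46 includes 1. In denervated muscle none was (1.55% of all genes). Without Rbm47, the log2 ratios of Fgf21KO over WT ran from -0.46 (Rbm15b) to 0.42 (Rbm34) in sham muscle and from -0.36 (Rbm48) to 0.42 (Rbm4) in denervated muscle. With Rbm47 included, the standard deviation over the 73 members was 0.22 in sham and 0.14 in denervated muscle, against 0.35 and 0.31 for all genes. The sham value is enlarged by Rbm47, at a log2 ratio of -1.27 from 2 and 6 reads.

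The rest of the splicing machinery was examined in 4 further lists, chosen by role. Of 29 genes of the snRNP core and the Lsm proteins, 9 rose (31%; 26.6% of all genes) and 4 fell (13.8%; 27% of all genes) after denervation, with a median log2 fold of 0.18. Lsm6, a subunit of the ring that binds U6 snRNA, was at 34.9 CPM in WS, 93.0 CPM in WD, 38.4 CPM in KS and 93.7 CPM in KD and rose by 1.35 ± 0.08 (adjusted p = 1.55e-14), and the Sm ring protein Snrpe rose by 0.96 ± 0.10 (adjusted p = 6.76e-09). The tissue-restricted Sm protein Snrpn was at 20.3, 11.5, 26.7 and 9.63 CPM in WS, WD, KS and KD and its log2 fold was -1.14 ± 0.13 (adjusted p = 1.94e-08), and that of its close paralog Snrpb was -0.56 ± 0.07 (adjusted p = 2.45e-07), with the division of reads between them uncertain. Among 41 factors of spliceosome assembly and catalysis, 16 rose (39%) and 3 fell (7.32%), with a median of 0.09. The folds in this list were smaller, from 0.60 for Crnkl1 and 0.46 for Cwc22 to -0.33 for Phf5a, a small SF3B subunit, and -0.29 for Zrsr1.

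Of 30 tested tissue-specific splicing regulators outside the members, 8 rose and 8 fell (26.7% each, near the 26.6% and 27% of all genes), with a median of 0.01. Mbnl1, the muscleblind protein that sets adult splicing patterns in muscle, was at 408 CPM in WS, 188 CPM in WD, 441 CPM in KS and 180 CPM in KD, and its log2 fold was -1.21 ± 0.07 (adjusted p = 2.5e-14). Mbnl3, its paralog known from immature muscle cells, was at 0.473 CPM in WS, 2.51 CPM in WD, 1.01 CPM in KS and 3.88 CPM in KD and rose by 2.11 ± 0.33 (adjusted p = 2.82e-06). Both denervated libraries lay on the same side of both sham libraries for each of these paralogs, in opposite directions. Rbpms had a log2 fold of -1.11 and the poly(C)-binding protein gene Pcbp1 one of 0.55, both past the threshold. Of 26 tested SR protein kinases and exon junction complex factors, 9 rose (34.6%) and 4 fell (15.4%) with a median of 0.07, led by the exon junction genes Magohb (0.92) and Eif4a3 (0.60), while Upf2 (-0.56) and the kinase Dyrk1a (-0.52) were the lowest.

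**Figure D5:**
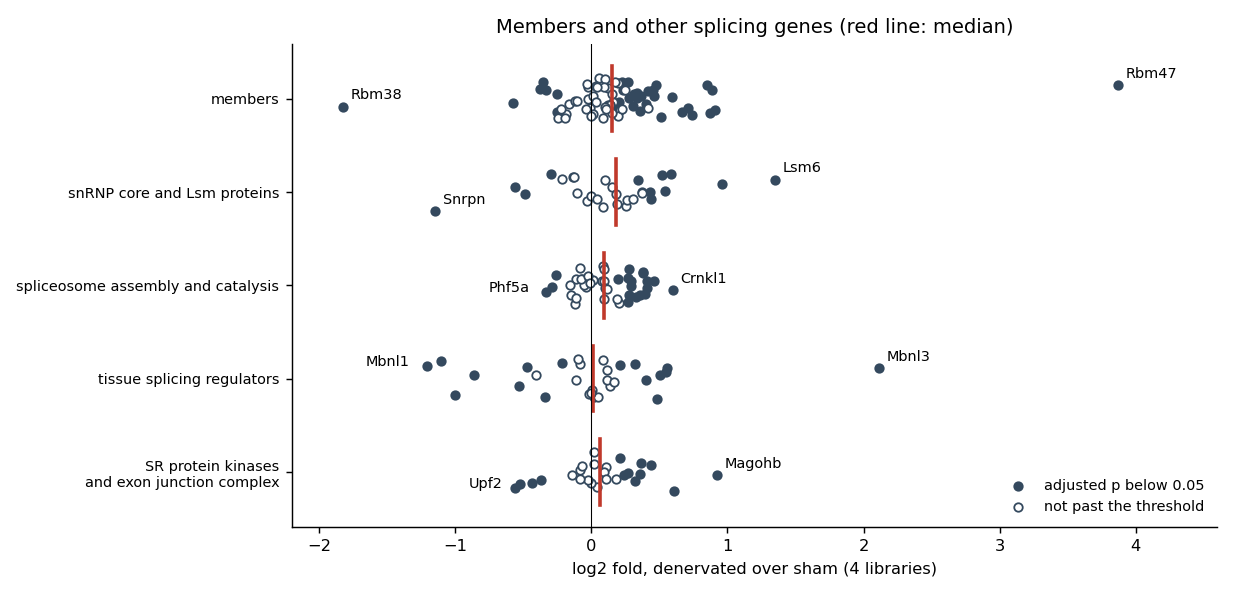
Log2 fold of denervation over the 4 libraries for the 73 tested members and for 4 other lists of splicing genes, with 1 point per gene, filled for an adjusted p-value below 0.05, and a red line at the median of each list. The medians were 0.15 for the members, 0.18 for the snRNP core and Lsm proteins, 0.09 for assembly and catalysis, 0.01 for tissue regulators and 0.07 for kinases and the exon junction complex, with Mbnl1 and Mbnl3 at opposite ends.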

How the data were processed

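Poly(A)-selected RNA from 1 pool of 4 TA muscles per group was sequenced with a stranded kit. The authors deposited read counts per gene without normalization, and these counts were used for every value in the report. The second deposited table is named for FPKM, but each of its log2 values could be rebuilt from the gene's count, 1 scale factor for that library and a pseudocount of 1, without correction for length, and they were used only as an alternative. The submitters' processing notes name FastQC and build GRCm39, and the aligner and counter are not given in the sources used here.

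Genes averaging 10 or more counts (13084) were scaled with edgeR 4.0.16 (TMM, R 4.3.3). Log2 CPM used a prior count of 2, and pairs of libraries were compared by their difference with 95% counting intervals (exact binomial), which cover counting error only. Intervals for the difference in denervation ratio between genotypes instead used a normal approximation to the counting error. Denervation and genotype were tested over the 4 libraries with the quasi-likelihood test of edgeR (additive model) with Benjamini-Hochberg adjustment over all genes at 0.05. DESeq2 1.42.0 and other scalings, filters and thresholds served as alternatives, and Python 3.11.15 with scipy 1.17.1 was used for summaries. The scripts were tested on simulated data. Exon lengths were from GENCODE M21, and promoter windows, on GRCm38.p6, from RefSeq.

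The members, the other lists and the rules for naming genes were chosen with earlier results of these data known. Named were the 8 highest and 8 lowest members by the log2 fold of denervation, the 2 highest and 2 lowest of each family and other list, the 3 highest and 3 lowest by genotype, the 3 whose response differed most, and several fixed for their roles. Genes named outside these rules were chosen after their values were seen. Likeness of patterns over 4 libraries was not reported. Rbm24 was not analysed here.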

Additional observations from a re-analysis of the deposited data

Results flagged for a closer look

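For 2 members the ratio of denervated over sham was on opposite sides of 0 in WT and Fgf21KO, with both counting intervals clear of 0, which held for 153 of all 13084 tested genes (1.17%). Srsf3 had 1187 reads in WS and 1924 in WD but 1891 in KS and 1737 in KD, and its log2 ratio of denervation in Fgf21KO minus that in WT was -0.39. Hnrnpm, an hnRNP that binds GU-rich RNA, had 2681, 3558, 3101 and 3461 reads in WS, WD, KS and KD, with log2 ratios of -0.08 (95% counting interval -0.16 to -0.01) in WT and 0.10 (0.03 to 0.17) in Fgf21KO and a difference of 0.18. With 1 library per group these differences were not tested.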

How the results depend on the processing

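Over all alternatives run, 120 values of counts and medians stayed close to the reported ones and 30 moved, and of the values of single genes 1155 stayed, 68 moved, 12 lost their call and 2 reversed. Total counts only moved the most results. It raised the members at least 2-fold apart from 4 to 7 in WD vs WS and from 3 to 9 in KD vs KS, the medians of the members to 0.47 and 0.50, the members that rose in the denervation test from 28 to 58 and those of the other lists from 41 to 95, and it lowered those that fell from 7 to 2 and from 19 to 8. It also reversed the denervation log2 fold of Rbm20 to 0.066 and of Sf3a2 to 0.073. A 1.5-fold threshold gave 9 and 11 members and 15 and 13 genes of the other lists in WD vs WS and KD vs KS, compared with 6 and 6 for the latter at 2-fold. Under the exact test at an assumed variation of 0.4, these counts were 0 and 1 for the members and 0 and 0 for the other lists. The single member 2-fold apart in KS vs WS, Rbm47, was at 0 calls with a mean count of at least 50, a prior count of 5, the deposited log2 values and the exact tests at 0.1 and 0.4. Adding a 2-fold threshold to the denervation test left 1 member higher and 1 lower and, of the other lists, 2 and 4. A 1.5-fold threshold left 9 and 1 and, of the other lists, 6 and 5. DESeq2's Wald test called 19 members as higher and 5 as lower and, of the other lists, 23 and 13. The cause was not tested beyond what the thresholds themselves impose. With total counts only, 46.7% of all genes rose and 12.8% fell in the denervation test. Shares of all genes for the 1.5-fold counts in WD vs WS and KD vs KS are given above. For the other settings no such share is given. Those counts therefore cannot tell a shift of the members from a shift of all genes. No paired analysis was possible because no group has more than 1 library and none carries a replicate number, beyond the genotype term of the model, which already groups the sham and denervated libraries from the same mice (without it, 26 members rose and 5 fell), and leaving out a library would leave the additive model without residual degrees of freedom. At 3 counts the limit was 0.0919 to 0.129 CPM, and Rbm47 in KS lay below it.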
